A study of Mus musculus with 8 samples.

Results

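CC chemokines are small secreted proteins, named for a pair of adjacent cysteines, that draw leukocytes along concentration gradients. They act on G protein-coupled receptors of the CCR family on leukocytes and are removed by atypical receptors, the ACKR scavengers, which bind them without classical signalling. Mesenchymal cells under the gut epithelium are a known source of them, and inflammatory signals through NF-kB induce many of their genes. The 8 CC chemokine genes described here, of 24346 gene symbols in the deposited tables, were taken by symbol: Ccl2, Ccl5, Ccl7, Ccl8, Ccl9, Ccl11, Ccl19 and Ccl20. All 8 had a value in each of the 8 libraries.

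Each library was made from mesenchymal cells of the mouse large intestine, sorted as negative for CD45, EpCAM, CD31 and Ly6C, positive for gp38 (podoplanin) and high for PDGFRα. Of the GABA and taurine libraries, made from C57BL/6 mice, 3 were labelled 6 h and 3 were labelled 0 h, with GABA given at 1 mM and taurine at 20 mM. Of the genotype libraries, both untreated, 1 came from Foxl1cre; Cxcl12 flox/flox mice (the Foxl1cre library), in which Cre under Foxl1 control deletes floxed Cxcl12 in Foxl1-expressing cells. The other came from mice with the same floxed alleles and no Cre, labelled Cxcl12 flox/flox (the floxed control library). The labels name no strain for the genotype libraries, no untreated library at 6 h, and no number of animals per library. The sources used here do not say whether the treated cells were cultured, and time and treatment cannot be told apart. Nor do the labels say what separates one replicate from another, so the p-values speak of the scatter among these libraries, perhaps technical, and not among mice.

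The values are FPKM (a read density corrected for transcript length and library size), which allow levels to be compared between genes per unit of length. Library totals ran from 513001 to 579004 FPKM, and the number of reads behind them is unknown. Genes above 0 FPKM numbered 14818 to 14974 in the GABA and taurine libraries, against 20874 and 21006 in the Foxl1cre and floxed control libraries. Values at or near 0 and places among all genes may therefore not compare evenly between the sets. Cxcl12 stood at 739.7 FPKM in the Foxl1cre library, against 1298.0 FPKM in the floxed control library. The mesenchymal markers Pdgfra and Pdpn, whose proteins the gate used, were above 90 FPKM in all 8 libraries. Pdpn was at 280.7 to 303.7 FPKM in the GABA and taurine libraries, against 91.7 and 96.1 FPKM in the genotype libraries. Of the 8 mesenchymal markers, Pdpn alone had a higher mean in the GABA and taurine libraries. On the log2(FPKM + 1) scale, 5 were at least 4-fold lower there. Foxl1 was between 0.109 and 0.289 FPKM in the 6 GABA and taurine libraries, against 11.6 and 10.2 FPKM in the genotype libraries. Summed over 10 pan-leukocyte markers, levels were 1.87 to 5.92 FPKM in the GABA and taurine libraries, against 164.5 and 136.1 FPKM in the Foxl1cre and floxed control libraries. Ly6c1 was at 8.76 to 12.4 FPKM, against 89.6 and 140.9 FPKM, although the gate was set to leave out Ly6C-positive cells.

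The CC chemokines of the GABA and taurine libraries were almost all Ccl2 and Ccl7, while the genotype libraries had Ccl11 in first place. Ccl2 and Ccl7, both ligands of Ccr2 that draw monocytes, together made up 95.8% to 97.1% of the summed FPKM of the 8 genes in the 6 GABA and taurine libraries. Their joint share was 49.7% in the Foxl1cre library and 41.9% in the floxed control library. Ccl11 (eotaxin), the ligand of Ccr3 that draws eosinophils, took 0.851% to 1.01% in the GABA and taurine libraries, against 47.1% and 53.8% in the genotype libraries. These shares are taken within a library and do not depend on how libraries were scaled to each other. In bulk libraries, fewer cells of a type and less RNA per cell cannot be told apart. The 8 genes together held 0.587% to 0.759% of all FPKM in the GABA and taurine libraries, against 0.205% and 0.184% in the genotype libraries.

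**Figure D1:**
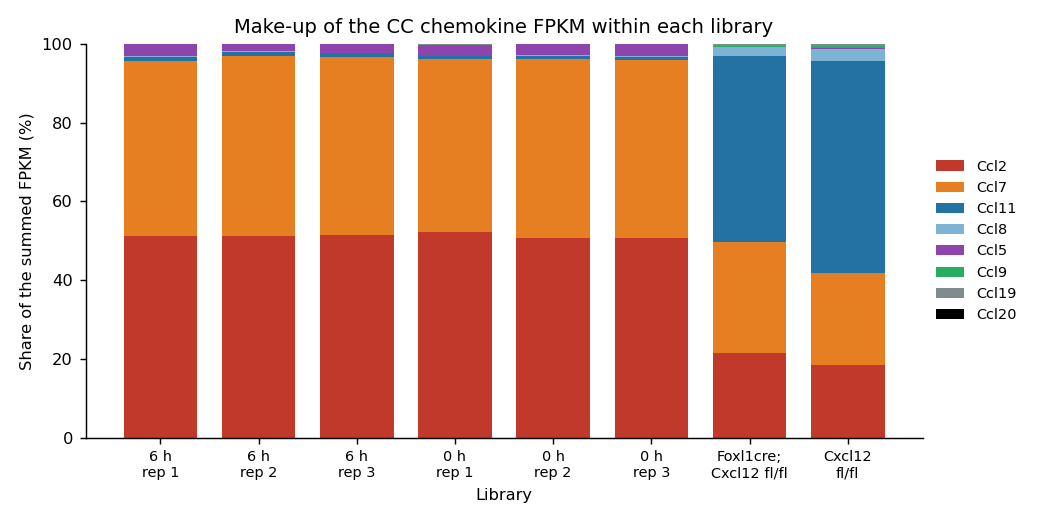
Share of the summed FPKM of the 8 CC chemokine genes that each gene took (y axis, %) in each of the 8 libraries (x axis, 1 bar per library). Ccl2 and Ccl7 fill 95.8% to 97.1% of the bars at 6 h and 0 h, and Ccl11 fills 47.1% and 53.8% of the genotype bars.

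Ccl2 stood at 2144.6, 1937.1 and 2069.1 FPKM at 6 h and at 1771.1, 1675.5 and 1808.5 FPKM at 0 h, against 232.4 FPKM in the Foxl1cre library and 173.3 FPKM in the floxed control library. All 6 GABA and taurine libraries lay above both genotype libraries, where the mean level was 9.37 times lower. Among all genes ordered by FPKM, Ccl2 held places 11 to 24 in the GABA and taurine libraries, against places 374 and 501 in the genotype libraries. Ccl7 stood at 1862.2, 1730.9 and 1806.8 FPKM at 6 h and at 1493.4, 1494.8 and 1610.0 FPKM at 0 h, against 305.4 and 222.8 FPKM in the genotype libraries. Its mean was 6.31 times as high in the GABA and taurine libraries, in which it held places 17 to 29, against places 264 and 387. The order of the pair differed between the sets: Ccl7 over Ccl2 was 0.843 to 0.893 in the 6 GABA and taurine libraries, against 1.31 and 1.29 in the genotype libraries.

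Ccl11 ran the other way. It stood at 40.3, 38.2 and 40.5 FPKM at 6 h and at 29.0, 28.1 and 31.3 FPKM at 0 h, against 509.7 FPKM in the Foxl1cre library and 508.1 FPKM in the floxed control library. The genotype mean was 14.7 times that of the GABA and taurine libraries. Ccl11 held places 2601 to 3525 among all genes in the GABA and taurine libraries, against places 135 and 141 in the genotype libraries. Within a library, Ccl2 was 50.6 to 61.1 times Ccl11 in the GABA and taurine set, against 0.456 and 0.341 times in the genotype set.

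Ccl5 (RANTES), a ligand of Ccr1 and Ccr3 among others that draws T cells, was at 129.2, 63.5 and 86.1 FPKM at 6 h and at 95.7, 93.7 and 107.9 FPKM at 0 h. The genotype libraries had 1.5 FPKM (Foxl1cre) and 3.13 FPKM (floxed control), and the mean was 41.5 times as high in the GABA and taurine libraries. All 9 T, NK and B cell markers were below 1 FPKM in every GABA and taurine library, where Cd3g and Cd8a were among those listed at 0, and the 9 summed to 40.7 and 38.0 FPKM in the Foxl1cre and floxed control libraries. Ccl5 was the member with the largest difference between the sets by log2(FPKM + 1), at 4.88.

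Ccl8, a ligand of Ccr8 in the mouse, was at 4.69, 7.38 and 5.88 FPKM at 6 h and at 3.44, 4.81 and 5.53 FPKM at 0 h, against 25.0 and 29.4 FPKM in the Foxl1cre and floxed control libraries. Its genotype mean was 5.14 times that of the GABA and taurine libraries. Ccl9, a ligand of Ccr1, was at 0.338, 0.425 and 0.125 FPKM at 6 h and at 0, 0.644 and 0.0179 FPKM at 0 h, against 2.38 and 3.47 FPKM. Ccl19, the ligand of Ccr7 that guides dendritic cells and T cells in lymphoid tissue, was at 1.18, 1.5 and 1.58 FPKM at 6 h and at 4.29, 1.85 and 1.46 FPKM at 0 h, against 5.31 and 5.09 FPKM. For all 3 genes the GABA and taurine libraries lay below both genotype libraries, with the 0 h replicate 1 library nearest to them for Ccl19. Ccl20, the ligand of Ccr6, was listed at 0 in 7 libraries and at 0.0841 FPKM in the 0 h replicate 3 library, so no fold was computed for it. Ccl19 is uncertain, because the annotation holds the pseudogene copies Ccl19-ps1 and Ccl19-ps3, among which reads may have been split, and an overlapping gene on the other strand, 4930578G10Rik. A further gene on the other strand, Gm17268, overlaps Ccl2, and the library kit does not mark strand.

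**Figure D2:**
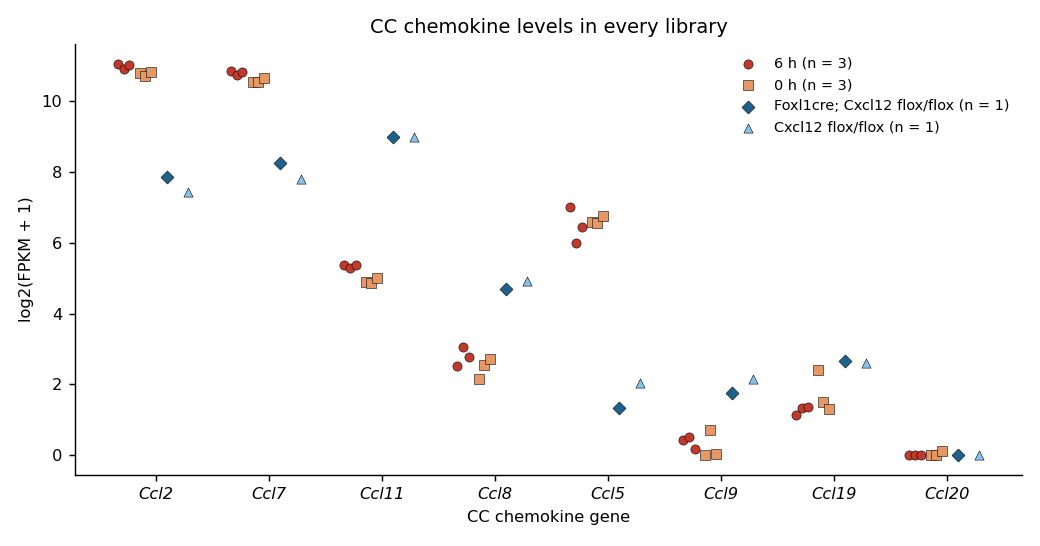
Level of each CC chemokine gene as log2(FPKM + 1) (y axis) in every library (1 point each), by gene (x axis) and group. Ccl2, Ccl7 and Ccl5 are higher at 6 h and 0 h than in both genotype libraries, Ccl11, Ccl8, Ccl9 and Ccl19 are lower, and Ccl20 is near 0 throughout.

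RefSeq promoter windows (GRCm38.p6), from 250 bases before to 50 after the start, were at hand for 4 of the 8 genes, Ccl8, Ccl9, Ccl19 and Ccl20, the 4 lowest of the 8 in the GABA and taurine libraries. They are printed 5′ to 3′ on the gene's strand to show how the windows of these genes differ, with matches to the kappaB consensus, which NF-kB binds, and to the TATAAA box in capitals on either strand.
Ccl8, chr11:82114935-82115234, plus strand: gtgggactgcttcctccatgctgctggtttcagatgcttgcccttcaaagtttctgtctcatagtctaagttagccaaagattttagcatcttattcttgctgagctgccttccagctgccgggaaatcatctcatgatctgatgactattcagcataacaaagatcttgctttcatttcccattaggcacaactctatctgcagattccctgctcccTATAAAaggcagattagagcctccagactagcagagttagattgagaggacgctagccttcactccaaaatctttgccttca
Ccl9, chr11:83578587-83578886, minus strand: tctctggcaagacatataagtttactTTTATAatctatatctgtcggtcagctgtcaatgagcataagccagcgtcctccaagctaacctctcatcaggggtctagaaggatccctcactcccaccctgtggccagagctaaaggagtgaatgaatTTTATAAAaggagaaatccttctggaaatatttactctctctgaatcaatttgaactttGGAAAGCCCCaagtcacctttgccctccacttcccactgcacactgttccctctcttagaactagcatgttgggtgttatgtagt
Ccl19, chr4:42756316-42756615, minus strand: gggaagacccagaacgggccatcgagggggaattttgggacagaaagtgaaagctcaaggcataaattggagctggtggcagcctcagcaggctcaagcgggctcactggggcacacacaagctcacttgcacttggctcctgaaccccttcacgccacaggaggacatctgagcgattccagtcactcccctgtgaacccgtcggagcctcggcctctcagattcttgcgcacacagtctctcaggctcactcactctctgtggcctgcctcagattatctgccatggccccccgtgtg
Ccl20, chr1:83116516-83116815, plus strand: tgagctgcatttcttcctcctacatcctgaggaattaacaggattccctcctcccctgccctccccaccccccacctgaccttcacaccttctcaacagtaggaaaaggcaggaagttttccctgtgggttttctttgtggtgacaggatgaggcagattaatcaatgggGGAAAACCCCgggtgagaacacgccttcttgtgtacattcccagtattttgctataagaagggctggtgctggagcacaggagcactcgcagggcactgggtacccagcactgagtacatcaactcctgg

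A kappaB match stood in the windows of Ccl9 (first base at -35 from the start) and Ccl20 (at -80), and in 8.46% of all 32851 promoter windows. Ccl8 had TATAAA at -32. Ccl9 had TATAAA at -92 on the gene's strand, overlapped by a match on the other strand at -94, and a further match on the other strand at -224. TATAAA was found in 13.6% of all windows. The palindrome of STAT6 (TTC and GAA parted by 4 bases), in 6.95% of all windows, had no match in these 4 windows. The AP-1 motif TGANTCA, in 7.81% of windows, matched Ccl9 at -53. Ccl9 and Ccl20, with a kappaB match, were the 2 lowest of these 4 genes in both library sets. Ccl2, Ccl5, Ccl7 and Ccl11 had no window to search, so a match cannot be set against level over the 8 genes. In the transcripts of GENCODE vM21, ATTTA, the core of AU-rich elements, occurred 9 times in that of Ccl20, 6 times in Ccl9, 5 times in Ccl11 and 2 times each in Ccl2 and Ccl7, and not in Ccl5, Ccl8 or Ccl19. Among 6037 coding transcripts of 500 to 1500 bases, 50.6% held it and the median number of copies was 1. That range holds 7 of the 8 members and leaves out Ccl9, whose transcript has 3006 bases. ATTTA was counted over the whole of 1 transcript per gene, coding part included, so these are not counts of AU-rich elements.

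The level between the library sets was described and not tested, because the sets may have been scaled separately and differ in treatment, genotype and possibly strain. Of the 8 genes, 6 had a mean of at least 1 FPKM over the 8 libraries, and in all 6 the sets did not overlap. This was the case for 79.1% of all 12043 genes at that level, so it does not set the chemokines apart. A difference of at least 4-fold was less common, at 5.19% of genes higher and 10.5% lower in the GABA and taurine libraries. Of the 6 chemokines, 3 were higher by that much (Ccl2, Ccl5 and Ccl7) and 2 lower (Ccl8 and Ccl11). The median log2 difference over the 6 was 0.77, against 0.05 over all genes, but no member lay near it. Of the 6, 3 were positive, from 2.67 (Ccl7) to 4.88 (Ccl5), where 51.9% of all genes were positive. The others ran from -1.13 (Ccl19) to -3.86 (Ccl11). Set against the floxed control library alone, the 0 h libraries had the same directions, with Ccl2 10.1 times and Ccl7 6.88 times as high and Ccl5 31.7 times as high. The level of Ccl11 in the floxed control library was 17.2 times the 0 h mean. Markers of several other cell types were also lower in the GABA and taurine libraries. The 11 macrophage and dendritic cell markers summed to 4.1 to 14.4 FPKM there, against 185.6 and 147.6 FPKM in the Foxl1cre and floxed control libraries, and the 11 epithelial markers to 2.63 to 7.94 FPKM, against 906.7 and 97.9 FPKM. The 8 mesenchymal markers themselves summed to 1215.6 to 1371.7 FPKM, against 15406.0 and 13838.9 FPKM. Markers of Foxl1-positive cells summed to 469.2 to 616.9 FPKM, against 957.9 and 866.7 FPKM. Most of the first sum was F3, at 393.0 to 523.4 FPKM, against 451.3 and 368.7 FPKM, while Bmp5 was at 1.35 to 2.77 FPKM, against 196.0 and 188.8 FPKM, and Bmp7 at most 0.846 FPKM, against 87.0 and 85.1 FPKM. Markers of pericytes and smooth muscle summed to 53.4 to 67.6 FPKM, against 112.6 and 122.0 FPKM. Among them Actg2 was higher, at 35.5 to 47.4 FPKM, against 10.2 and 15.8 FPKM, and Kcnj8 lower, at most 0.939 FPKM, against 33.6 and 31.5 FPKM. Blood endothelial markers summed to 9.37 to 17.4 FPKM, against 41.5 and 64.1 FPKM, lymphatic endothelial markers to 0.144 to 0.564 FPKM, against 10.3 and 11.4 FPKM, and eosinophil, mast cell and neutrophil markers to 1.95 to 3.93 FPKM, against 12.6 and 12.1 FPKM. The part of these differences in the chemokine levels was not tested.

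Neighbouring genes on chromosome 11 differed in direction between the sets. In GENCODE vM21 (GRCm38, the assembly that mm10 names), 6 of the 8 genes lie on that chromosome. Ccl2 (82035571 to 82037453), Ccl7 (82045712 to 82047525), Ccl11 (82057823 to 82062955) and Ccl8 (82115185 to 82116799) follow each other on the plus strand within 81229 bases, each protein-coding with 3 exons. Ccl12, another Ccr2 ligand, lies between Ccl11 and Ccl8. Ccl7 ends only 10297 bases before Ccl11 begins, yet Ccl7 was 6.31 times as high and Ccl11 14.7 times lower in the GABA and taurine libraries than in the genotype libraries. Ccl12 was at most 0.527 FPKM in the GABA and taurine libraries, against 1.97 and 1.23 FPKM in the genotype libraries. Ccl5 (83525778 to 83530518) and Ccl9 (83572919 to 83578636) lie in a second group on the minus strand, 42400 bases apart, and they too differed in opposite directions. Ccl19 lies on chromosome 4 (42754525 to 42756577, minus strand) and Ccl20 on chromosome 1 (83116766 to 83119167, plus strand). Ccl5 and Ccl20 have 3 exons, and Ccl9 and Ccl19 have 4.

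**Figure D3:**
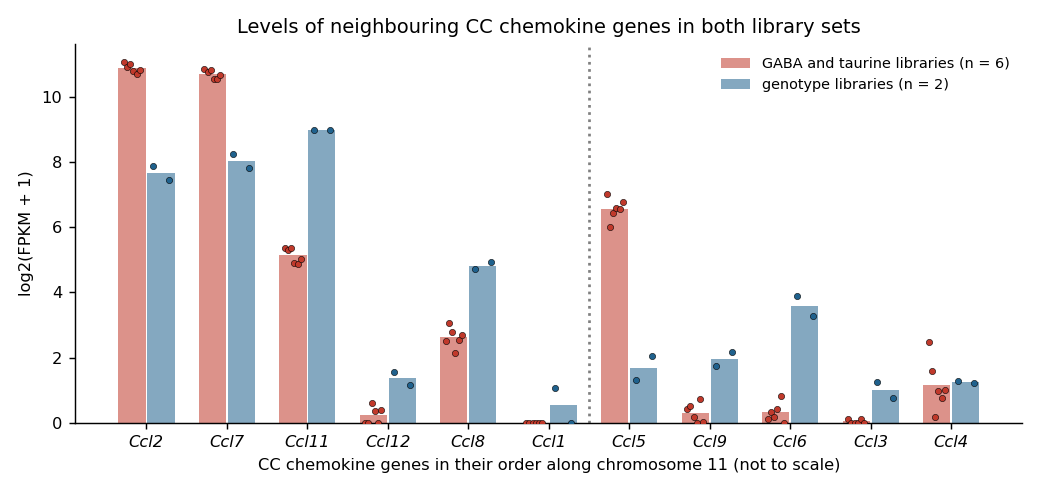
Mean log2(FPKM + 1) (bars, y axis) with each library as a point, for CC chemokine genes in their order along chromosome 11 (x axis, not to scale; the dotted line parts the group of Ccl2 from that of Ccl5). Ccl2 and Ccl7 are higher in the GABA and taurine libraries, and their neighbours Ccl11, Ccl12 and Ccl8 are higher in the genotype libraries.

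At 6 h against 0 h of GABA and taurine, Ccl11 rose and no other member passed the test. Its values of 40.3, 38.2 and 40.5 FPKM at 6 h all lay above the 29.0, 28.1 and 31.3 FPKM at 0 h, and the means were 39.7 ± 1.26 and 29.5 ± 1.67 FPKM (SD, n = 3 each). The log2 difference was 0.42 (SE 0.073, 95% interval 0.26 to 0.58, limma adjusted p = 0.0319 over the 10910 genes averaging 1 FPKM or more). This call was kept in 4 of 12 alternative fits and was lost without 0 h replicate 1 or 2 or any 6 h replicate (adjusted p of 0.0766 to 0.159), while the difference stayed between 0.39 and 0.46 in all 12. Among all genes tested, 0.55% passed in either direction and 0.238% were higher at 6 h, and 1 of the 6 tested chemokines passed. Of the 6, 4 had a positive log2 difference, against 49.5% of all genes, and 3 had an unadjusted p under 0.05, against 9.38% of all genes. The 11 epithelial markers summed to 4.5 to 7.94 FPKM at 6 h and 2.63 to 3.69 FPKM at 0 h, with 1 of 2 tested, Krt8, higher (limma adjusted p = 0.0319). Krt8 was at 2.12, 1.745 and 2.305 FPKM at 6 h and 0.271, 0.729 and 0.188 FPKM at 0 h. Its mean of 1.23 FPKM lay near the filter of 1 FPKM, and no gene passed with no filter or with no intensity trend. Mesenchymal markers summed to 1368.9 to 1371.7 FPKM at 6 h and 1215.6 to 1233.5 FPKM at 0 h, with 0 of 7 past the limma threshold and 4 at an unadjusted p under 0.05, a level that 9.38% of all genes reached. Markers of Foxl1-positive cells summed to 567.7 to 616.9 FPKM at 6 h and 469.2 to 514.1 FPKM at 0 h, with 0 of 5 past the limma threshold, 5 positive and 3 at an unadjusted p under 0.05. The part of these in the rise of Ccl11 was not tested. Of the eosinophil markers, Epx and Siglecf were listed at 0 in all 6 libraries, and Prg2 was at 0.876 to 1.94 FPKM at 6 h and 1.5 to 1.9 FPKM at 0 h.

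Ccl2 and Ccl7 also had all 3 values at 6 h above all 3 at 0 h, by smaller amounts, and missed the threshold. Ccl2 averaged 2050.3 ± 105 FPKM at 6 h and 1751.7 ± 68.6 FPKM at 0 h (SD, n = 3 each), a log2 difference of 0.23 (95% interval 0.11 to 0.34, limma adjusted p = 0.0963). Ccl7 averaged 1800.0 ± 65.9 FPKM at 6 h and 1532.7 ± 66.9 FPKM at 0 h (SD, n = 3 each), a log2 difference of 0.23 (95% interval 0.12 to 0.34, limma adjusted p = 0.0722). Exact two-sided permutation tests of Ccl2, Ccl7 and Ccl11 each gave p = 0.1, the smallest p that 3 against 3 libraries allow. All 3 libraries at 6 h above all 3 at 0 h was seen in 7.25% of the genes tested, and in 3 of the 6 chemokines tested.

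The other members overlapped between the times. Ccl5 averaged 92.9 ± 33.4 FPKM at 6 h and 99.1 ± 7.72 FPKM at 0 h (SD, n = 3 each), and its highest and lowest values were both at 6 h, in replicates 1 and 2. Its log2 difference was -0.15 (95% interval -0.54 to 0.24, limma adjusted p = 0.856), and without 6 h replicate 2 it was 0.0918. Ccl8 averaged 5.98 ± 1.35 FPKM at 6 h and 4.6 ± 1.06 FPKM at 0 h, with a 95% interval of the log2 difference from -0.07 to 0.71. Ccl19 averaged 1.42 ± 0.212 FPKM at 6 h and 2.53 ± 1.54 FPKM at 0 h, with a 95% interval from -1.01 to 0.08. The 4.29 FPKM of the 0 h replicate 1 library carried most of the Ccl19 difference, which was -0.46 with it and -0.13 without it. These intervals leave room for a rise of Ccl8 or a fall of Ccl19 larger than the rise of Ccl11. Ccl9 and Ccl20 were below the filter of 1 FPKM and were not tested.

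**Figure D4:**
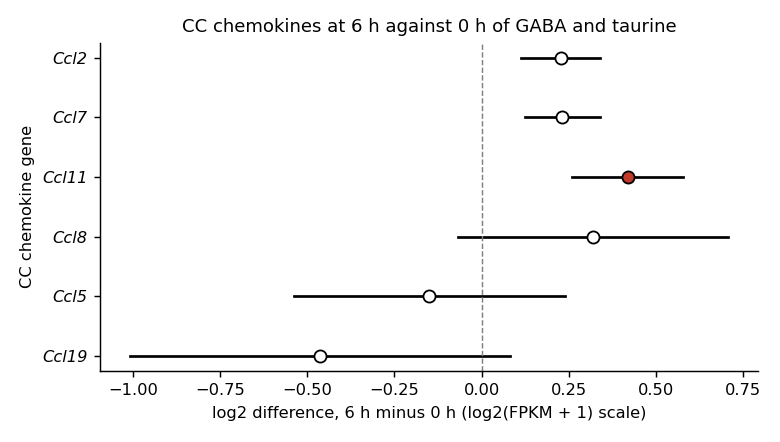
Difference of each tested CC chemokine at 6 h against 0 h on the log2(FPKM + 1) scale (x axis, points) with its 95% interval (lines), from limma on 3 libraries each. The filled point is Ccl11, with an adjusted p of 0.0319, and the open points did not pass the threshold of 0.05.

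Ratios between members within a library were set side by side for the same comparison. The log2 ratio of Ccl7 to Ccl2 was -0.19 ± 0.022 at 6 h and -0.19 ± 0.046 at 0 h (SD, n = 3 each, exact two-sided permutation p = 0.8). That of Ccl11 to Ccl2 was -5.69 ± 0.038 at 6 h and -5.89 ± 0.04 at 0 h, with all 3 ratios at 6 h above all 3 at 0 h (exact two-sided permutation p = 0.1, Benjamini-Hochberg 0.2 over the 2 ratios). Profiles over the 6 libraries were compared among 6309 genes averaging 10 FPKM or more. With the members left out, the nearest to Ccl2 were Il11, Grhpr and Kif5b. Their root mean square distances were 0.0287, 0.0294 and 0.0300 log2 units. Ccl7 lay at 0.0296 from Ccl2, where the median gene lay at 0.158. Nearest to Ccl7 were Tnfrsf11b (0.00784), which encodes osteoprotegerin, Lum (0.0232) and Rbbp9 (0.0248). Nearest to Ccl11 were the stromelysin gene Mmp3 (0.047), the cyclooxygenase gene Ptgs1 (0.0539) and Lyrm2 (0.0555).

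The Foxl1cre and floxed control libraries were set side by side, and with 1 library each no test was possible. Ccl2 stood at 232.4 against 173.3 FPKM and Ccl7 at 305.4 against 222.8 FPKM, both higher in the Foxl1cre library, 1.34 and 1.37 times the level of the floxed control library. Ccl11 was level at 509.7 against 508.1 FPKM, and Ccl19 stood at 5.31 against 5.09 FPKM. Ccl8 stood at 25.0 against 29.4 FPKM, Ccl9 at 2.38 against 3.47 FPKM and Ccl5 at 1.5 against 3.13 FPKM, the lowest ratio at 0.479. On the log2(FPKM + 1) scale, 0 of the 7 chemokines with a mean of at least 1 FPKM differed 2-fold, against 3.59% of all 14949 genes. This count depends on the pseudocount, since Ccl5 was at -0.72 on that scale and at -1.01 with a pseudocount of 0.1, past 2-fold. At a lower bar of 1.2-fold, set after the values were seen, 2 were higher (Ccl2 and Ccl7) and 2 lower (Ccl5 and Ccl9), where 18.4% of all genes were higher and 19.2% lower. With 7 genes and 1 library each, these counts do not set the chemokines apart. Of the 7, 4 had a positive log2 ratio, against 55% of all genes. Pan-leukocyte markers, with 9 of 10 higher, summed to 164.5 FPKM in the Foxl1cre library and 136.1 FPKM in the floxed control library. The 11 epithelial markers, all higher, summed to 906.7 FPKM and 97.9 FPKM. Their part in the Ccl2 and Ccl7 difference was not tested.

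The remaining CC chemokine genes were mostly low. Of 16, 13 were below 1 FPKM in every GABA and taurine library. Ccl25, which draws Ccr9-bearing lymphocytes to the gut, was the highest of them there at 7.96, 8.28 and 8.7 FPKM at 6 h and 6.79, 6.06 and 7.21 FPKM at 0 h, against 2.62 and 3.87 FPKM in the genotype libraries (limma adjusted p = 0.474 for 6 h against 0 h). Elavl1, a gene on the other strand, overlaps Ccl25, and the library kit does not mark strand, so the Ccl25 values are uncertain. In the same way Il11ra1 overlaps Ccl27a, and E230016K23Rik overlaps Ccl6. Ccl27a, which has near-identical copies and is uncertain, and Ccl4 had limma adjusted p-values of 0.681 and 0.756. Of the 3 tested, 0 passed in limma, and 1 had an unadjusted p under 0.05, against 9.38% of all genes. In the genotype libraries Ccl6 stood at 14.0 against 8.59 FPKM and Ccl27a at 13.5 against 20.0 FPKM. Ccl21a, a second ligand of Ccr7 with near-identical copies, stood at 18.2 against 0.00502 FPKM, so this value is uncertain.

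Most receptors of these chemokines were below 1 FPKM in the GABA and taurine libraries, and several receptors and scavengers differed between the sets. Of 15 receptor and scavenger genes, 11 were below 1 FPKM in every GABA and taurine library, Ccr2, Ccr3 and Ccr6 among them, and these 3 lay between 0.723 and 2.04 FPKM in the genotype libraries. Ccr7, the receptor of Ccl19, was listed at 0 in 5 GABA and taurine libraries and at 1.23 FPKM in 0 h replicate 2, against 16.6 FPKM in the Foxl1cre library and 12.5 FPKM in the floxed control library. Ackr4, which removes Ccl19, Ccl21 and Ccl25, was at 1.43, 0.951 and 2.03 FPKM at 6 h and 0.633, 0.557 and 0.237 FPKM at 0 h, against 206.6 FPKM in the Foxl1cre library and 165.5 FPKM in the floxed control library. Its log2 difference between the sets was -6.62, and its mean of under 1 FPKM kept it out of the test at 6 h. Ackr2, the scavenger of inflammatory CC chemokines such as Ccl2 and Ccl11, was at most 0.295 FPKM in the GABA and taurine libraries, against 6.0 and 4.79 FPKM. Ackr3, which removes Cxcl12, was at 31.4 to 34.2 FPKM, against 143.0 and 136.6 FPKM (limma adjusted p = 0.989 for 6 h against 0 h). Ccrl2, an atypical receptor that binds chemerin, was at 21.3 to 31.3 FPKM, against 32.6 and 32.5 FPKM (limma adjusted p = 0.811). These 2 were the receptors and scavengers tested at 6 h, with 0 at an unadjusted p under 0.05. Among those averaging 1 FPKM or more over the genotype libraries, the largest differences between genotypes on the log2(FPKM + 1) scale were those of Ccr8 (0.671 against 2.1 FPKM), Ccr4 (0.798 against 2.0 FPKM) and Ackr1 (4.69 against 3.15 FPKM), in the Foxl1cre and floxed control libraries.

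NF-kB genes were mostly higher in the GABA and taurine libraries and did not pass the test at 6 h. Of 19, 16 had a positive log2 difference between the sets, with a median of 1.11, where 51.9% of all genes were positive with a median of 0.05. Relb was at 134.6 to 156.3 FPKM, against 18.6 and 18.8 FPKM in the genotype libraries, Nfkb2 at 82.6 to 95.9 FPKM, against 17.5 and 13.2 FPKM, and Rela at 155.7 to 177.9 FPKM, against 51.9 and 47.4 FPKM. Nfkbiz, a nuclear cofactor of NF-kB, lay the other way at 12.2 to 21.3 FPKM, against 109.9 and 80.3 FPKM. So did Nfkbia, the highest of the 19, at 323.0 to 437.9 FPKM, against 568.3 and 522.0 FPKM. Rel had a small negative log2 difference of -0.15, and its values overlapped between the sets. Relb, Nfkb2 and Rela were chosen after their values were seen. At 6 h against 0 h, 0 of the 19 passed in either direction in limma, with 2 at an unadjusted p under 0.05 (9.38% of all genes), and the smallest p-values were those of Nfkb1, Nfkbiz and Bcl3, with adjusted p of 0.286, 0.392 and 0.625. Between genotypes Tnfaip3 (43.8 against 31.5 FPKM), Nfkbiz (109.9 against 80.3 FPKM) and Nfkbib (29.1 against 22.0 FPKM) had the largest differences on the log2(FPKM + 1) scale (0.46, 0.45 and 0.39), all higher in the Foxl1cre library. In plain FPKM the low-level Traf1 had a higher ratio, at 1.42.

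Upstream receptors and their transducers were all 23 expressed in the GABA and taurine libraries, and 0 passed at 6 h in limma, with 2 at an unadjusted p under 0.05, against 9.38% of all genes. Il17ra, the receptor of interleukin 17, was at 33.6 to 40.3 FPKM, against 6.06 and 5.32 FPKM in the genotype libraries, a gene chosen for its values. Its partner chain Il17rc lay the other way, at 11.1 to 16.2 FPKM, against 43.3 and 34.6 FPKM, and 12 of the 23 had a positive difference between the sets, with a median log2 difference of 0.19. Il13ra1, part of the receptor for interleukins 4 and 13, which induce Ccl11, was at 47.2 to 50.1 FPKM at 6 h and 41.0 to 44.8 FPKM at 0 h (limma adjusted p = 0.373), against 11.5 and 8.14 FPKM in the genotype libraries. Osmr, the receptor of oncostatin M, had a limma adjusted p of 0.606. Between genotypes Il13ra1, Ifngr1 and Il17rc had the largest differences on the log2(FPKM + 1) scale, at 0.45, 0.33 and 0.32. Among proteases and proteoglycans that cleave or present chemokines, 1 of 15 tested passed, against 0.55% of all genes. This was Mmp3, at 702.4 FPKM at 6 h and 548.4 FPKM at 0 h (limma adjusted p = 0.0191). Of the 15, 4 had an unadjusted p under 0.05 in limma, against 9.38% of all genes. Ext1 and Hs6st1, enzymes of heparan sulfate synthesis, had negative log2 differences of -0.46 and -0.41 (limma adjusted p = 0.0796 and 0.314). Dpp4, which trims chemokines at their amino end, was at most 0.105 FPKM in the GABA and taurine libraries, against 3.21 and 4.03 FPKM in the genotype libraries. The syndecan gene Sdc4 stood at 99.1 FPKM in the Foxl1cre library and 76.2 FPKM in the floxed control library.

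**Figure D5:**
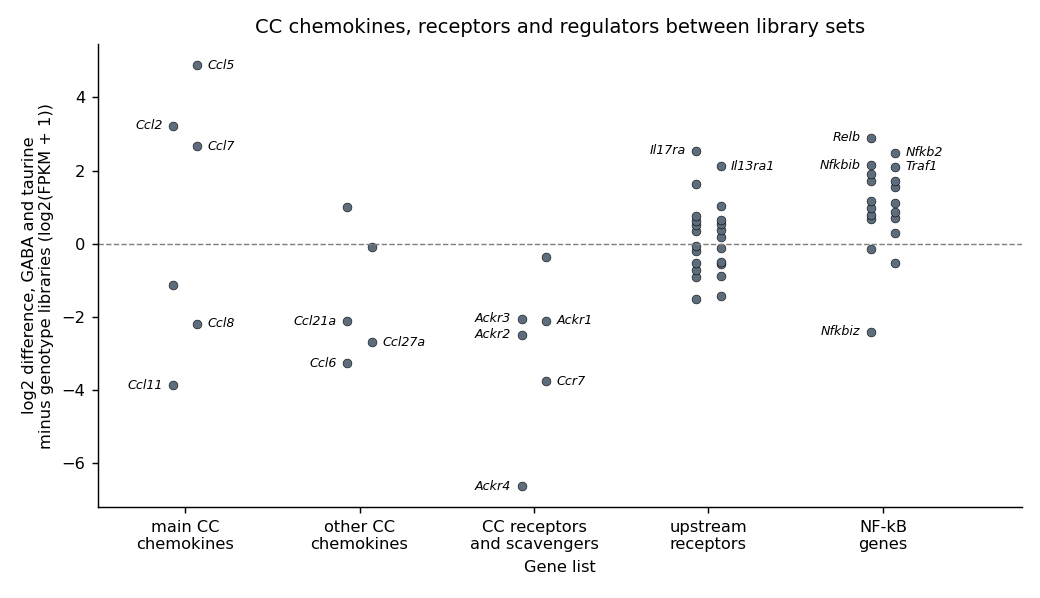
Difference on the log2(FPKM + 1) scale between the 6 GABA and taurine libraries and the 2 genotype libraries (y axis) for each gene averaging 1 FPKM or more in the 5 lists shown (x axis), with genes beyond 2 log2 units named. Ccl5, Ccl2 and Ccl7 lie above 2, Ccl8 and Ccl11 below -2, and Ackr4 lies lowest of the genes plotted, at -6.62. The point of Ccl21a, at -2.11, rests on the Foxl1cre library alone (18.2 FPKM) and is uncertain.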

How the data were processed

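RNA was sequenced from 8 libraries of sorted mesenchymal cells, made with SMART-Seq HT and Nextera XT per the labels' protocols. The authors deposited 1 table per library whose values are FPKM, per the file headers. Cuffdiff 2.2.1, TopHat2 2.1.1, SAMtools 0.1.18, Bowtie2 2.2.8 and the mm10 build stand in the submitters' processing notes without role or order. How libraries were scaled to each other, and with which annotation, is not stated there. The most frequent ratio of low values put the Foxl1cre library at 1.26 times the depth of the floxed control library, but absolute depth is unknown and counting error was not estimated.

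From the deposited FPKM, log2(FPKM + 1) was fitted over the 10910 genes averaging 1 FPKM or more over the 3 libraries at 6 h and the 3 at 0 h, with limma 3.58.1 (R 4.3.3, intensity trend, Benjamini-Hochberg, threshold 0.05). The script was tested on simulated data. The planted changes were larger than the difference of Ccl11, so that test does not bear on the Ccl11 call. Genotypes (1 library each) and library sets were compared without a test. The ratio of Ccl20 to Ccl2 was planned and could not be formed, since Ccl20 was listed at 0. Likewise no genes most like Ccl20 were sought. The members and the 15 other gene lists were chosen with earlier results of these data known. Named were all 8 members, up to 3 genes per list by p at 6 h and by ratio between genotypes, and the 3 nearest profiles among other genes. A few items that this rule or the motif search covers are not reported here. Marker lists were of mesenchymal, Foxl1-positive, leukocyte, macrophage, lymphocyte, granulocyte, epithelial, endothelial, lymphatic and pericyte or smooth muscle cells. Alternatives changed the pseudocount, the filter, the scaling, the trend, a replicate block and the libraries left out.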

Additional observations from a re-analysis of the deposited data

How the results depend on the processing

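Ccl11 kept its direction at 6 h in all 12 alternative fits and its call in 4. Its difference of 0.42 was past the threshold with a pseudocount of 0.1, a filter of 10 FPKM, median-of-ratios scaling and without 0 h replicate 3. It missed the threshold at 0.42 with no filter (adjusted p = 0.244), with no intensity trend (0.301) and with a replicate block (0.0716), and with any other library left out, from 0.39 to 0.46 over all 6. Ccl7 passed with a filter of 10 FPKM (0.23, adjusted p = 0.0478) and without 0 h replicate 3 (0.27, adjusted p = 0.0226), and ran from 0.21 to 0.27 with 1 library left out. Ccl5 was -0.15 with all libraries and 0.0918 without 6 h replicate 2 and ran from -0.42 to 0.0918 with 1 library left out. Genes higher and lower at 6 h numbered 26 and 34, and 0 and 0 with no filter or with no intensity trend, where 1322 and 960 genes had an unadjusted p under 0.05. With a replicate block they numbered 14 and 9. With 1 library left out they ran from 0 to 47 and from 2 to 68, highest without 0 h replicate 3 and at most 5 and 36 without any other library. The causes were not tested. Deviations of same-numbered libraries correlated at -0.044, 0.013 and -0.028, so the numbers were not taken to pair the libraries. The log2 ratio of Ccl7 to Ccl2 differed by 0.0056 and ran from -0.021 to 0.0197 with 1 library left out, with a negative sign without 0 h replicate 1 or 6 h replicate 2.

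Between the library sets all 7 members with a value kept their direction. Median-of-ratios scaling lowered the median of all genes by 0.224 and gave 2.97 for Ccl2, 2.41 for Ccl7 and -4.11 for Ccl11. A pseudocount of 0.1 gave 5.37 for Ccl5 and -3.42 for Ccl9. With 1 library left out, Ccl2 ran from 3.02 to 3.44 and Ccl7 from 2.44 to 2.89. Between genotypes, a pseudocount of 0.1 moved Ccl5 past 2-fold, to -1.01 where it was -0.72. All 14 values there moved by less than 1 SD of the gene among the GABA and taurine libraries of 1 time, since the genotypes have no replicates.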
